A study of Mus musculus with 2 samples.

Results

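The insulin-like growth factor (IGF) genes were followed across the stromal and endothelial cells of mouse bone marrow. The 10 members were the ligands Igf1 and Igf2, the receptors Igf1r and Igf2r, and the binding proteins Igfbp2, Igfbp3, Igfbp4, Igfbp5, Igfbp6 and Igfbp7. They were picked by gene symbol out of the 28006 features counted, and each symbol named a single feature. The data were single-cell transcriptomes of Cxcl12-GFP+ cells sorted from femoral marrow and bone of 2 mice aged 28 days that had received tamoxifen on day 21. Both mice carried the same alleles, namely Cxcl12(GFP/+), Cxcl12-iCreER and R26R(tdTomato/+), so all comparisons were between classes of cells and not between groups of animals. The iCreER came from a bacterial artificial chromosome transgene of a single line, and GFP replaced 1 copy of Cxcl12. The extraction label named a sort for tdTomato+ cells where the others named GFP+ cells, and the libraries were treated as GFP+ sorts.

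Insulin-like growth factors are secreted peptides that act through the tyrosine kinase receptor encoded by Igf1r, and they are known as growth factors of bone. Igf2r takes up Igf2 and carries it to the lysosome. Binding proteins hold the ligands outside the cell, lengthen their life and limit their access to the receptor, and proteases release them again.

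Counting of unique molecular identifiers (UMIs, each a tag of 1 captured transcript) gave 54940400 UMIs in the library of Mouse 1 and 88790688 in that of Mouse 2. Cells, meaning barcodes that showed 1000 genes or more and no more than 15% of mitochondrial UMIs, numbered 2750 and 4582, with medians of 12966.5 and 12190.0 UMIs. In all, 7 cell barcodes occurred in both libraries, where 1.85 would be shared if barcodes were drawn at random. The cells fell into 16 clusters, which were named after marker genes and are written with "-like". Reticular-like cells, which had the highest level of GFP transcripts of the named stromal classes, were 1318 in Mouse 1 and 2572 in Mouse 2. Preosteoblast-like cells numbered 403 and 782, periosteal-like cells 76 and 239, and mature osteoblast-like cells 14 and 62. The endothelial-like cells divided into arterial-like cells (122 and 109) and sinusoidal-like cells (28 and 27). A cluster of 66 and 80 cells led by Acta2 and mitotic genes was left unnamed. Blood cells (723 and 711) passed the sort too and served as the background for RNA that is free in the droplets.

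The class names were checked against the summed level of their markers, in CPM, the UMIs of a gene in 1000000 UMIs of the class. The 8 reticular markers reached 17266 CPM in Mouse 1 and 14899 CPM in Mouse 2 in reticular-like cells. Arterial-like cells held 442 and 589 CPM of the same markers, below the 1464 and 1468 CPM of blood cells. Sinusoidal-like cells held 1850 and 3451 CPM of them, and all 8 markers were above 0 there, with Adipoq at 91.1 and 410 CPM. The endothelial markers stood at 7045 and 7636 CPM in sinusoidal-like cells. The 8 preosteoblast markers were at 4196 and 3880 CPM in sinusoidal-like cells, led by Col1a1 (2925 and 2832 CPM) and Ibsp (690 and 574 CPM), against 196 and 720 CPM in arterial-like cells and 276 and 822 CPM in blood cells. The macrophage markers summed to 926 and 783 CPM there, of which Mrc1 made up 915 and 771 CPM, while C1qa, C1qc, Adgre1, Cd5l and Vsig4 were at 0 in both mice. Stromal transcripts were thus read in the sinusoidal-like class above the level of blood cells, and their part in the values of that class was not tested. Not every sum singled out its own class. The preosteoblast markers were at 14611 and 16838 CPM in preosteoblast-like cells. They were at 14140 and 13810 CPM in periosteal-like cells and at 205265 and 174154 CPM in mature osteoblast-like cells. The periosteal markers were at 3648 and 2947 CPM in periosteal-like cells and at 2058 and 1858 CPM in arterial-like cells. eGFP was at 12653 and 12329 CPM in reticular-like cells, at 55.5 and 225 CPM in mature osteoblast-like cells and at 533 and 817 CPM in blood cells. The other classes were above blood cells too. Preosteoblast-like cells held 5264 and 3090 CPM of eGFP and periosteal-like cells 4732 and 3026 CPM. Arterial-like cells held 3692 and 3338 CPM and sinusoidal-like cells 1511 and 3142 CPM. Of the reticular-like clusters, cluster 0 was led by Ccl2, cluster 2 included the heat shock genes Hspa1a and Hspb1 among its leading genes, and cluster 3 included Egr1.

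The proximal promoters of 5 members are shown because Igf1, Igfbp4 and Igfbp5 were abundant together in the stroma, while Igfbp3 and Igfbp7 peaked in arterial-like cells. Each sequence holds the 250 bases before the RefSeq start site on the gene's strand (GRCm38.p6), 5′ to 3′. Capitals mark every match, on either strand, to TATAAA, to CCAAT or to the GC box GGGCGG. The E-box CACGTG was also searched and had no match in these 5 promoters. The windows are chr10:87860861-87861110 (Igf1, plus strand), chr11:99040994-99041243 (Igfbp4, plus), chr1:72874866-72875115 (Igfbp5, minus), chr11:7213924-7214173 (Igfbp3, minus) and chr5:77408046-77408295 (Igfbp7, minus). In the GENCODE annotation the Igf1 gene begins at base 87858265, so its whole window lies inside the gene. The Igf1 letters thus precede a RefSeq start within the gene and not its first base. The Igfbp5 window partly overlaps its gene, which GENCODE ends at base 72874884.
Igf1: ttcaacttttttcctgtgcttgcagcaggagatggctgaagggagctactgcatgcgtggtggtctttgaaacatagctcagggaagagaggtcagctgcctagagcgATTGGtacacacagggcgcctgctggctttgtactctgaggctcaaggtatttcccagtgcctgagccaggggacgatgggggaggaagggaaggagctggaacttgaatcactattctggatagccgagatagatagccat
Igfbp4: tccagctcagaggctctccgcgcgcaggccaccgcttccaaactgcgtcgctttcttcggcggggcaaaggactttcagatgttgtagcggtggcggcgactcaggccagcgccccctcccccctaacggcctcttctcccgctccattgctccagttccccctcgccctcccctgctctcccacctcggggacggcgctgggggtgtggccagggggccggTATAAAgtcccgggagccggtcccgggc
Igfbp5: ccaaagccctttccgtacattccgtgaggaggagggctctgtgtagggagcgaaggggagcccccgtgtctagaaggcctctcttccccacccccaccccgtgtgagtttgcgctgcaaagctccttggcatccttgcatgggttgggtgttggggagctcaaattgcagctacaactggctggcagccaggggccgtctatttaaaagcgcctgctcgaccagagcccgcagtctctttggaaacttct
Igfbp3: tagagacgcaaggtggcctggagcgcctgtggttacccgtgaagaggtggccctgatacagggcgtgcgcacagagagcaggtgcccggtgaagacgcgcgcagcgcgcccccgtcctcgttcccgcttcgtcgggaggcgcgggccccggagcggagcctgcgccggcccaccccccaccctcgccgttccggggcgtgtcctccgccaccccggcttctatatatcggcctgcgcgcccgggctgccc
Igfbp7: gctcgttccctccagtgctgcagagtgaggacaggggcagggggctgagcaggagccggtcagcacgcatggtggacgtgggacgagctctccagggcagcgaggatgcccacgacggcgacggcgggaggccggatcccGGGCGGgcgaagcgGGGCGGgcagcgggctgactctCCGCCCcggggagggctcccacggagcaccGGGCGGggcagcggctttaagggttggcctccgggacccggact

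The Igfbp4 promoter held TATAAA 28 bases before the start, a motif found in 12.4% of the 32851 mouse promoters of this length. The Igf1 window held a reversed CCAAT 142 bases before its RefSeq start within the gene, where 33.8% of promoters hold that motif on either strand. Igfbp7 had 4 GC boxes, and 32.7% of promoters had at least 1. None of the searched letters occurred in the windows of Igfbp5 and Igfbp3. Guanine and cytosine made up 74.0% of the Igfbp7 window, 73.2% of the Igfbp3 window and 69.2% of the Igfbp4 window, against a median of 52.4% over all promoters. The Igf1 window was at 52.8% and the Igfbp5 window at 58.8%. These matches are descriptions of the letters and were not tied to any level.

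Igf1, the main ligand of Igf1r, is a gene of chromosome 10 (ENSMUSG00000020053, GRCm38 chr10:87858265-87937042, plus strand). Its level was 1399 CPM in Mouse 1 and 2706 CPM in Mouse 2 in periosteal-like cells, the highest of the 6 classes. Reticular-like cells followed with 715 and 845 CPM, then preosteoblast-like cells with 515 and 458 CPM. Sinusoidal-like cells stood at 178 and 288 CPM, arterial-like cells at 15.9 and 47.9 CPM and mature osteoblast-like cells at 5.74 and 11.1 CPM. No neighbours in this order overlapped between the mice. Blood cells gave 53.2 and 90.6 CPM, so the arterial-like and mature osteoblast-like values were below those of blood cells as a whole. Among blood cells, macrophage-like cells reached 90.1 and 189 CPM and erythroid-like cells 16.7 and 43.7 CPM. The arterial-like value was above the erythroid-like value in Mouse 2. Mature osteoblast-like cells had a median of 32968.5 and 48426.5 UMIs, against 12811.0 and 10601.0 in blood cells. The part of depth in these values was not tested. The 4 reticular-like clusters were close to one another, from 660 to 808 CPM in Mouse 1 and from 822 to 895 CPM in Mouse 2.

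Igf2, the fetal growth ligand, was highest in periosteal-like cells (ENSMUSG00000048583, chr7:142650766-142666816, minus strand). Its level there was 504 CPM in Mouse 1 and 299 CPM in Mouse 2, 16.1 and 9.93 times the next class. Reticular-like cells held 31.3 and 30.1 CPM and preosteoblast-like cells 26.8 and 26.6 CPM, against 4.46 and 3.91 CPM in blood cells. Arterial-like cells held 26.3 CPM in Mouse 1 but 5.40 CPM in Mouse 2. Sinusoidal-like cells had 2 UMIs in each mouse, and mature osteoblast-like cells had 0 and 10. Barcodes of 1 to 100 UMIs, which hold mostly free RNA, carried Igf2 at 41.7 and 53.5 CPM. H19, the imprinted noncoding RNA of the same locus, lies 72.6 kb from Igf2 and also peaked in periosteal-like cells. It was at 986 and 1529 CPM in periosteal-like cells, at 28.5 and 30.4 CPM in preosteoblast-like cells and at 8.68 and 2.75 CPM in reticular-like cells.

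**Figure D1:**
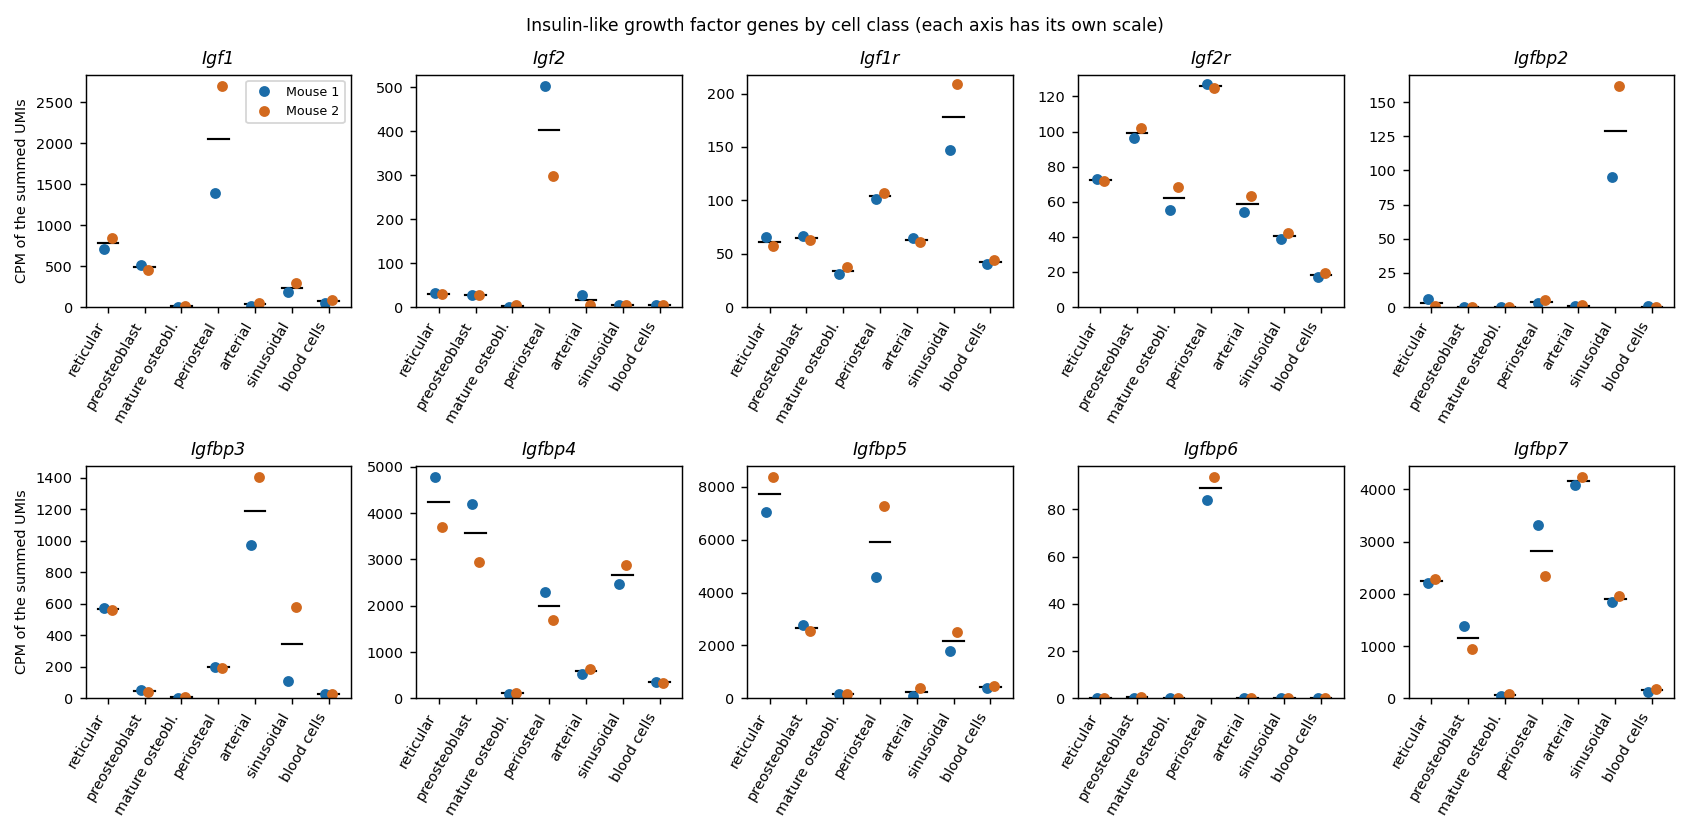
CPM of the summed UMIs of each class (vertical axis, own scale per gene) for the 10 members in 6 stromal and endothelial classes and blood cells, with 1 point per mouse and a bar at the mean of both. Igf2 and Igfbp6 peak in periosteal-like cells, Igfbp2 and Igf1r in sinusoidal-like cells, Igfbp3 and Igfbp7 in arterial-like cells, and Igfbp4 and Igfbp5 in reticular-like cells.

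The receptor genes were spread more evenly than the ligands. Igf1r, the signaling receptor (ENSMUSG00000005533, chr7:67952827-68233668, plus strand), was at 147 CPM in Mouse 1 and 209 CPM in Mouse 2 in sinusoidal-like cells. Periosteal-like cells held 101 and 107 CPM. Preosteoblast-like, arterial-like and reticular-like cells lay between 57.2 and 66.7 CPM in both mice and overlapped. Mature osteoblast-like cells held 30.6 and 37.3 CPM, the lowest values on this scale. Their place in the order of both receptors depends on the scaling of the sums, as the test of these classes shows. Blood cells as a whole were at 40.7 and 44.4 CPM, but the myeloid-like cells among them were at 86.9 and 95.0 CPM, so they expressed the gene and are a poor background for it. Igf2r, the clearance receptor of Igf2 (ENSMUSG00000023830, chr17:12682406-12769664, minus strand), had another order. It was at 127 and 125 CPM in periosteal-like cells, at 96.1 and 102 CPM in preosteoblast-like cells and at 72.7 and 71.6 CPM in reticular-like cells. Mature osteoblast-like cells (55.5 and 68.6 CPM) overlapped arterial-like cells (53.9 and 63.5 CPM). Sinusoidal-like cells came last with 39.0 and 42.2 CPM, above the 17.0 and 19.5 CPM of blood cells. The class with the highest Igf1r level therefore had the lowest Igf2r level of the 6. Airn, an antisense RNA that overlaps Igf2r on the opposite strand, was at 31.9 and 31.4 CPM in reticular-like cells and at 8.67 and 11.7 CPM in sinusoidal-like cells. Whether any of its transcripts were counted as Igf2r was not tested.

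Igfbp4 and Igfbp5 had their highest mean level in reticular-like cells, and for each the next class overlapped. Igfbp5, which binds both ligands and also the bone matrix (ENSMUSG00000026185, chr1:72857932-72874884, minus strand), was at 7058 CPM in Mouse 1 and 8379 CPM in Mouse 2 in reticular-like cells. Periosteal-like cells held 4584 and 7259 CPM, which overlaps the reticular-like range. Preosteoblast-like cells held 2785 and 2532 CPM and sinusoidal-like cells 1808 and 2499 CPM. Mature osteoblast-like cells (153 and 169 CPM) and arterial-like cells (87.1 and 377 CPM) lay below the 372 and 472 CPM of blood cells of the same mouse. Igfbp4, a binding protein known to restrain IGF action (ENSMUSG00000017493, chr11:99041244-99054392, plus strand), was at 4789 and 3702 CPM in reticular-like cells. Preosteoblast-like cells had 4194 and 2948 CPM, and these classes overlapped. Sinusoidal-like cells followed with 2463 and 2877 CPM, then periosteal-like cells with 2293 and 1702 CPM and arterial-like cells with 526 and 639 CPM. Arterial-like cells thus stayed above the 360 and 333 CPM of blood cells for Igfbp4 but not for Igfbp5. Mature osteoblast-like cells held 93.8 and 121 CPM of Igfbp4, below blood cells.

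Igfbp3 and Igfbp7 were highest in arterial-like cells, and other classes held them too. Igfbp3, the main carrier of IGF in serum (ENSMUSG00000020427, chr11:7206086-7213923, minus strand), was at 975 CPM in Mouse 1 and 1407 CPM in Mouse 2 in arterial-like cells. Reticular-like cells held 576 and 563 CPM, and sinusoidal-like cells 113 and 579 CPM, a range that runs from below the periosteal-like to above the reticular-like values. Periosteal-like cells were at 199 and 193 CPM and preosteoblast-like cells at 55.8 and 37.2 CPM, against 28.9 and 29.3 CPM in blood cells. Mature osteoblast-like cells held 1 and 31 UMIs. Igfbp7, a relative with low affinity for the ligands (ENSMUSG00000036256, chr5:77349240-77408041, minus strand), was at 4082 and 4241 CPM in arterial-like cells and at 3314 and 2333 CPM in periosteal-like cells. Reticular-like cells held 2216 and 2291 CPM, sinusoidal-like cells 1850 and 1953 CPM and preosteoblast-like cells 1381 and 937 CPM. No neighbours in the Igfbp7 order overlapped. Mature osteoblast-like cells had 38.3 and 87.6 CPM, below the 123 and 177 CPM of blood cells.

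Igfbp2 and Igfbp6 each reached 20 CPM in a single class of the 6. Igfbp2 (ENSMUSG00000039323, chr1:72824503-72852474, plus strand) was at 95.4 CPM in Mouse 1 and 162 CPM in Mouse 2 in sinusoidal-like cells, from 44 and 69 UMIs. The next classes overlapped, with 5.56 and 0.970 CPM in reticular-like cells, 2.92 and 5.05 CPM in periosteal-like cells and 0.691 and 1.35 CPM in arterial-like cells. The ratio of sinusoidal-like to arterial-like cells was 138 in Mouse 1 (95% counting interval 23.5 to 5574) and 120 in Mouse 2 (31.9 to 1009). Mature osteoblast-like cells had 0 UMIs, so sinusoidal-like cells were at least 16.6-fold and 150-fold higher against a floor of 3 counts per library. Igfbp6, a binding protein that prefers Igf2 (ENSMUSG00000023046, chr15:102144362-102149511, plus strand), was at 83.9 and 93.8 CPM in periosteal-like cells, from 115 and 334 UMIs. Reticular-like cells held 4 and 3 UMIs, so that the ratio to them was 351 (133 to 1309) and 967 (328 to 4711). Arterial-like, sinusoidal-like and mature osteoblast-like cells had 0 UMIs of Igfbp6, and the unnamed cluster had 7.45 and 8.49 CPM. Against the same floor, periosteal-like cells were at least 40.5-fold and 46.3-fold higher than arterial-like cells. Igfbp2 and Igfbp5 lie tail to tail on chromosome 1 with 5457 bases between them, and their levels peaked in different classes.

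The summed level of the 6 binding proteins was highest in reticular-like cells. It was 14645 CPM in Mouse 1 and 14935 CPM in Mouse 2 in reticular-like cells, 10477 and 11586 CPM in periosteal-like cells and 8416 and 6455 CPM in preosteoblast-like cells. Sinusoidal-like cells held 6330 and 8070 CPM and arterial-like cells 5670 and 6665 CPM, both above preosteoblast-like cells in Mouse 2 but not in Mouse 1. Mature osteoblast-like cells held 287 and 388 CPM, below the 884 and 1011 CPM of blood cells.

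Detection per cell was compared after each cell was thinned at random to 2000 UMIs, so that depth was equal. Median depths of the 6 classes before thinning ran from 9725.5 UMIs in arterial-like cells of Mouse 1 to 48426.5 UMIs in mature osteoblast-like cells of Mouse 2, and were 12811.0 and 10601.0 UMIs in blood cells. Igf1 was found in 67.8% of reticular-like cells of Mouse 1 (95% Wilson interval 65.2 to 70.3%) and in 74.7% of those of Mouse 2 (73.0 to 76.4%). The unthinned shares were 93.6% and 95.4%. In blood cells the thinned share was 6.37% and 9.03% (unthinned 14.0% and 20.8%). Arterial-like cells, with 2.46% and 5.50% (unthinned 8.20% and 22.0%), were at or below it. In mature osteoblast-like cells 0 of 14 and 1 of 62 thinned cells had a UMI, and 0 of 14 allows a share of cells with a UMI of up to 21.4% at that depth. Their unthinned shares were 14.3% and 24.2%, at a depth well above that of blood cells. Periosteal-like cells reached 75.0% and 87.8% (unthinned 100% and 98.7%), and preosteoblast-like cells 49.4% and 47.4% (unthinned 77.4% and 77.0%). Sinusoidal-like cells were at 17.9% (7.88 to 35.6%) and 44.4% (27.6 to 62.7%), both unthinned shares being higher, at 60.7% and 81.5%.

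For Igfbp5 the thinned share was 96.9% and 99.3% in reticular-like cells (unthinned 99.2% and 99.7%) against 13.2% and 24.0% in blood cells (unthinned 35.8% and 57.4%). Its share in arterial-like cells, 6.56% and 20.2% (unthinned 26.2% and 58.7%), was at the level of blood cells and was read as background. Igfbp4 was found in 54.9% and 55.0% of arterial-like cells (unthinned 89.3% and 85.3%) against 18.6% and 22.6% of blood cells (unthinned 49.4% and 56.5%). Igfbp4 in arterial-like cells therefore stood above the background. Igf1r was found in 35.7% (20.7 to 54.2%) and 44.4% (27.6 to 62.7%) of sinusoidal-like cells, with unthinned shares of 67.9% and 81.5%. Lymphoid-like cells gave the lowest Igf1r share, 1.71% and 0.851%. Arterial-like cells were at 15.6% and 9.17% for Igf1r (unthinned 45.9% and 37.6%). These intervals and floors cover counting error alone.

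**Figure D2:**
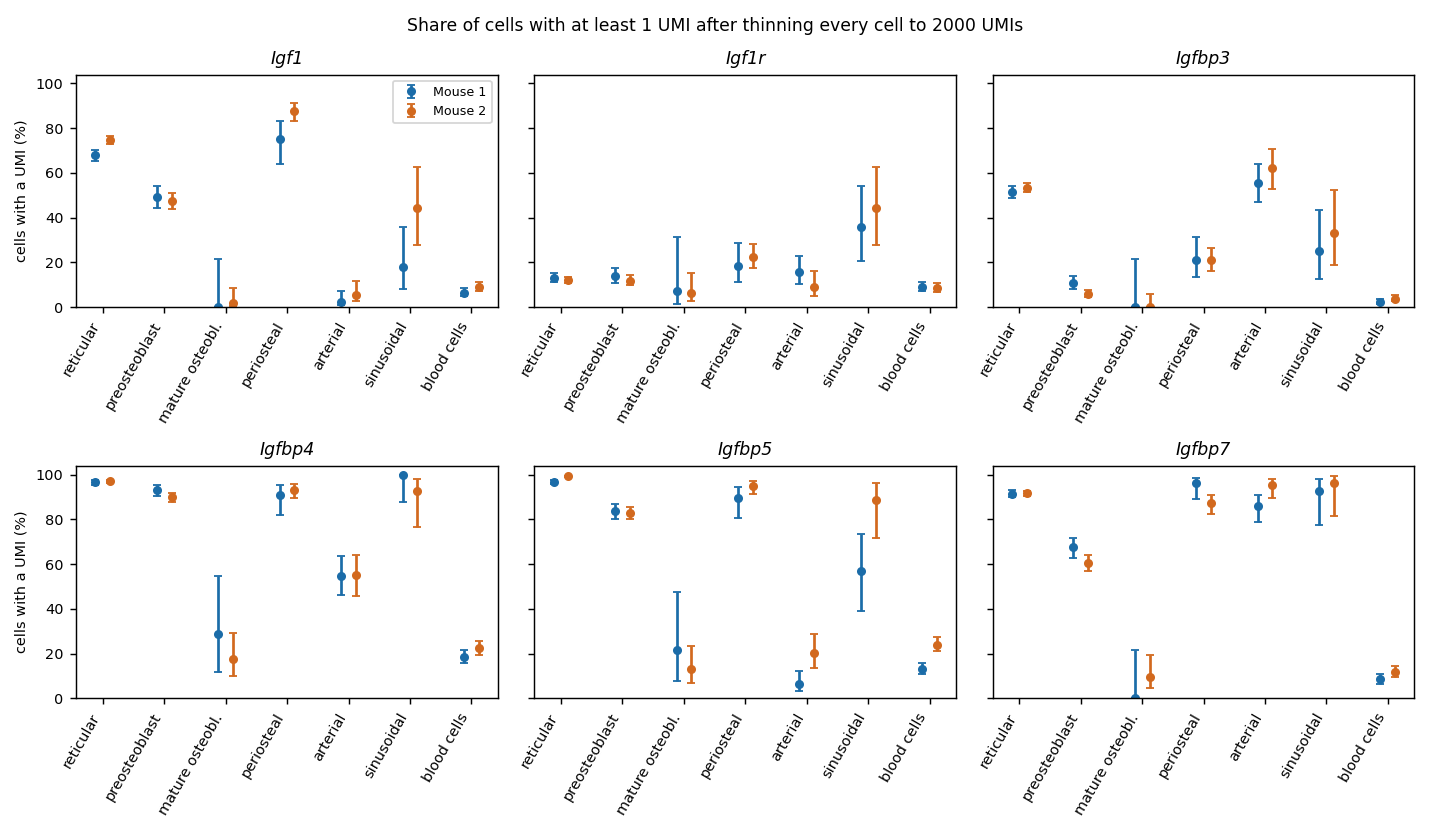
Share of cells (%) with at least 1 UMI of 6 members after every cell was thinned to 2000 UMIs, by class and mouse, with 95% Wilson intervals that cover counting error only. Igfbp4 and Igfbp5 are found in over 96% of reticular-like cells of both mice, while Igf1 and Igfbp5 in arterial-like and mature osteoblast-like cells lie within the range of blood cells or have intervals that reach it.

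Single thinned reticular-like cells carried a median of 4.0 members in Mouse 1 and 5.0 members in Mouse 2, while blood cells carried a median of 0.0 in both. Igf1, Igfbp4 and Igfbp5 were seen together in 65.0% of reticular-like cells of Mouse 1 (854 of 1313) and in 73.1% of those of Mouse 2 (1869 of 2558). This share was 60.5% and 79.4% in periosteal-like cells, 41.9% and 40.8% in preosteoblast-like cells and 14.3% and 37.0% in sinusoidal-like cells. It was 3.46% and 3.95% in blood cells. The ligand and both binding proteins were thus read from the same stromal cells.

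Differences between classes were tested on UMIs summed per mouse and class with edgeR's quasi-likelihood test and Benjamini-Hochberg adjustment over all genes, a call being an adjusted p under 0.05. The p-values rest on the spread between these 2 mice pooled over all classes of the fit, not over the compared classes alone. Sums of the same mouse were treated as independent. In reticular-like against preosteoblast-like cells the binding proteins Igfbp3, Igfbp5 and Igfbp7 were higher and the receptor Igf2r was lower in the reticular stroma. The log2 fold change (± SE) was 3.67 ± 0.31 for Igfbp3 (adjusted p = 2.85e-05), 1.59 ± 0.27 for Igfbp5 (adjusted p = 0.00182) and 1.01 ± 0.29 for Igfbp7 (adjusted p = 0.0290). Igf2r differed by -0.42 ± 0.12 (adjusted p = 0.0304). Igfbp2 was called higher too (adjusted p = 0.0258), from 93 and 30 UMIs against 1 and 3, a ratio of 39.0 in Mouse 1 (6.83 to 1558) and 4.62 in Mouse 2 (1.44 to 23.7). Thus 5 of the 10 members were called, 4 higher and 1 lower, where 25.2% of the 11939 genes tested were called. Igf1 had 0.73 ± 0.32 (adjusted p = 0.121) and passed with the mouse as a block (adjusted p = 0.0415). Igfbp4 had 0.30 ± 0.23 (adjusted p = 0.381), Igf2 0.24 ± 0.32 (adjusted p = 0.637) and Igf1r -0.03 ± 0.12. Igfbp6 had at most 7 UMIs in a sum. The median over the members was 0.51 and over all genes -0.03. Of the 5 calls, the call of Igfbp3 held when either mouse was left out. Igfbp7 and Igf2r were lost without either mouse, Igfbp2 without Mouse 1 and Igfbp5 without Mouse 2.

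Periosteal-like cells had more of both ligands and both receptors than reticular-like cells, and less Igfbp3 and Igfbp4. In reticular-like against periosteal-like cells, Igf2 differed by a log2 fold change of -3.77 ± 0.34 (adjusted p = 3.34e-05) and Igf1 by -1.47 ± 0.32 (adjusted p = 0.00821). The receptors followed, with -0.85 ± 0.13 for Igf1r (adjusted p = 8.75e-04) and -0.88 ± 0.13 for Igf2r (adjusted p = 8.07e-04). Igfbp3 was higher in reticular-like cells by 1.47 ± 0.29 (adjusted p = 0.00455) and Igfbp4 by 1.01 ± 0.23 (adjusted p = 0.00989). Igfbp6 was called lower, with the ratios above (adjusted p = 5.83e-07). That made 7 of 10 members, 2 higher and 5 lower, against 21.5% of all genes. Igfbp5 (0.31 ± 0.26, adjusted p = 0.449) and Igfbp7 (-0.40 ± 0.29, adjusted p = 0.371) were not called, nor was Igfbp2. The median was -0.71 over the members and 0.01 over all genes. The calls of Igf2 and Igfbp6 held when either mouse was left out. Without Mouse 1, 6 members were called, all lower and with Igfbp2 among them, and without Mouse 2, 2 were called.

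Mature osteoblast-like cells had less Igf1 and less of the abundant binding proteins than preosteoblast-like cells. Igfbp4 differed by a log2 fold change of -4.27 ± 0.27 (adjusted p = 3.34e-06), Igfbp5 by -3.28 ± 0.30 (adjusted p = 2.14e-05) and Igfbp7 by -3.31 ± 0.33 (adjusted p = 4.37e-05). Igf1 was called lower from 3 and 31 UMIs (adjusted p = 2.68e-05), Igf2 from 0 and 10 UMIs (adjusted p = 0.0236) and Igfbp3 from 1 and 31 UMIs (adjusted p = 0.0146). These 6 members, all lower, stand beside 34.7% of all genes called. The member median was -3.30 and the median over all genes -0.14. The class held 14 and 62 cells, with a median depth of 32968.5 and 48426.5 UMIs. Igf1r (-0.10 ± 0.15, adjusted p = 0.740) and Igf2r (0.13 ± 0.14, adjusted p = 0.521) were not called. Both receptors depended on the scaling of the sums. With library size alone the median over all genes was -0.90, and Igf1r (-0.86, adjusted p = 8.87e-04) and Igf2r (-0.62, adjusted p = 0.00292) were called lower. The higher calls were then 807 and the lower calls 6759, in place of 1995 and 2150. The calls of Igf1, Igfbp4, Igfbp5 and Igfbp7 held when either mouse was left out, while Igf2 was lost without either mouse and Igfbp3 without Mouse 1.

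Endothelial-like cells, with arterial-like and sinusoidal-like cells summed, had less of both ligands, Igfbp4, Igfbp5 and Igf2r than reticular-like cells and more Igf1r, Igfbp2 and Igfbp3. Igf1 stood at 55.0 and 102 CPM and differed by a log2 fold change of -3.37 ± 0.36 (adjusted p = 2.04e-05). Igfbp5 differed by -3.56 ± 0.29 (adjusted p = 3.19e-06) and Igfbp4 by -2.04 ± 0.24 (adjusted p = 3.86e-05). Igf2 differed by -1.28 ± 0.44 (adjusted p = 0.0340) and Igf2r by -0.46 ± 0.14 (adjusted p = 0.0191). In the other direction were Igfbp2 with 3.25 ± 0.65 (adjusted p = 0.00252), Igf1r with 0.50 ± 0.13 (adjusted p = 0.00822) and Igfbp3 with 0.76 ± 0.28 (adjusted p = 0.0448). These were 8 of 10 members, where 48.2% of all genes were called. The smaller class carried the Igfbp2 difference, since 44 of 45 and 69 of 71 of the endothelial-like Igfbp2 UMIs lay in the 28 and 27 sinusoidal-like cells. Arterial-like cells alone held 0.691 and 1.35 CPM of Igfbp2 against 5.56 and 0.970 CPM in reticular-like cells, and 65.0 and 61.4 CPM of Igf1r against 65.2 and 57.2 CPM. Igfbp7 had 0.64 ± 0.29 (adjusted p = 0.0950) and passed without a filter on low counts (adjusted p = 0.00248) and with only these classes in the fit (adjusted p = 0.00269). The median was -0.87 over the members and -0.05 over all genes. The calls of Igf1, Igfbp2, Igfbp4 and Igfbp5 held when either mouse was left out. Igfbp3 and Igf2r were lost without either mouse, and Igf1r and Igf2 without Mouse 2. Stricter cell limits, a finer clustering and clustering with the members allowed each ended the Igfbp3 call (adjusted p from 0.0504 to 0.107), and DESeq2 that of Igf2 (adjusted p = 0.0504).

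Within the endothelium, sinusoidal-like cells had more Igf1, Igf1r, Igfbp2, Igfbp4 and Igfbp5, and arterial-like cells more Igfbp3 and Igfbp7. In arterial-like against sinusoidal-like cells, Igf1r differed by a log2 fold change of -1.64 ± 0.19 (adjusted p = 8.23e-05) and Igfbp4 by -2.35 ± 0.25 (adjusted p = 3.87e-05). Igf1 differed by -3.01 ± 0.46 (adjusted p = 7.25e-04) and Igfbp5 by -3.35 ± 0.51 (adjusted p = 6.60e-04). Igfbp2 was called from 1 and 2 UMIs against 44 and 69 (adjusted p = 5.18e-04). Igfbp7 differed by 0.98 ± 0.29 (adjusted p = 0.0325) and Igfbp3 by 1.63 ± 0.52 (adjusted p = 0.0462). Thus 7 of 10 members were called, 2 higher and 5 lower, against 19.3% of the 11575 genes tested. Igf2r (0.38 ± 0.22, adjusted p = 0.306) was not called, nor was Igf2 with 2 UMIs in each sinusoidal-like sum, and Igfbp6 was at 0 in both classes. The member median was -0.82 and that of all genes -0.01. Igf1, Igfbp4 and Igfbp5 are abundant in reticular-like and preosteoblast-like cells. The 8 reticular markers were at 1850 and 3451 CPM in sinusoidal-like cells against 442 and 589 CPM in arterial-like cells. The preosteoblast markers, at 4196 and 3880 CPM against 196 and 720 CPM, moved the same way. Of the macrophage markers, Mrc1 was at 915 and 771 CPM against 6.91 and 2.03 CPM. C1qa, C1qc, Adgre1, Cd5l and Vsig4 were at 0 in sinusoidal-like cells of both mice, and C1qb and Cd68 reached at most 11.7 CPM there. The part of transcripts from other cells in these differences was not tested. For Igf1r and Igfbp2 the sinusoidal-like level was above the reticular-like level in both mice. The calls of Igf1, Igf1r, Igfbp2, Igfbp4 and Igfbp5 held when either mouse was left out, whereas Igfbp7 was lost without either mouse and Igfbp3 without Mouse 1. The Igfbp3 call was also lost with DESeq2 (adjusted p = 0.0728), with only these classes in the fit, with stricter cell limits and at a finer clustering. With library size alone the higher calls were 1292 and the lower calls 1079, in place of 920 and 1313, and the same number of members was called.

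**Figure D3:**
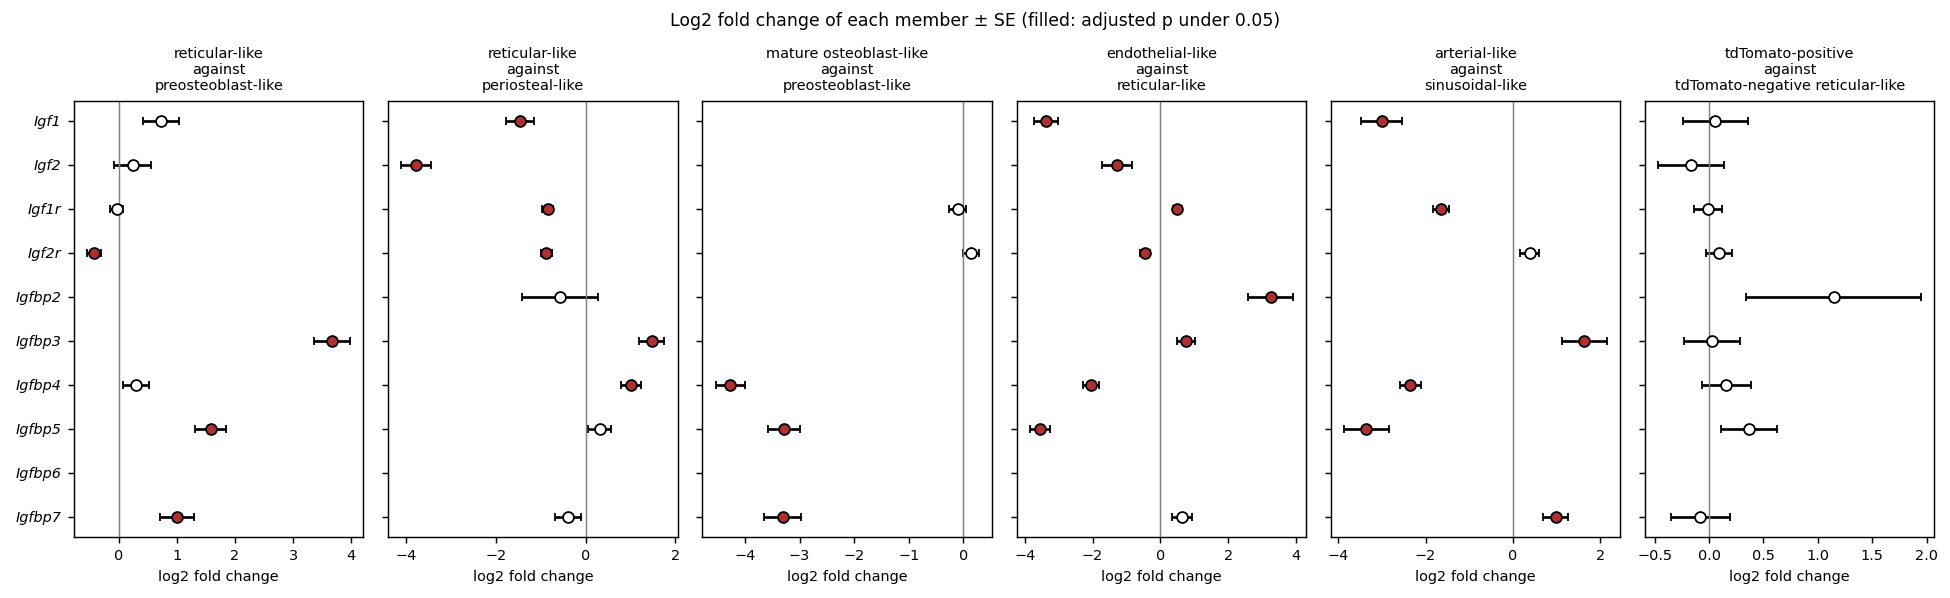
Log2 fold change ± SE of the members in the 6 comparisons (horizontal axis, own scale per panel), with filled points for an adjusted p under 0.05. Members whose sums held 3 UMIs or fewer in a class compared have no point, so the panels show 8, 9, 5, 9, 7 and 9 members in the order drawn.

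The tdTomato reporter marks reticular-like cells in which iCreER had acted, and no member was called different by it. Cells above the 99th percentile of blood cells for tdTomato were 509 in Mouse 1 and 986 in Mouse 2, and the others 809 and 1586. That limit was 8.63 and 14.6 tdTomato UMIs per 10000. The paper reports occasional tdTomato+ cells without tamoxifen, nearly all of them in its CD45/Ter119/CD31+ fraction. Blood cells are thus not a sure negative, and tdTomato-negative cells may include some in which iCreER had acted. Igfbp5 was at 8120 and 9531 CPM in tdTomato-positive cells and at 6354 and 7628 CPM in tdTomato-negative cells, a log2 fold change of 0.37 ± 0.25. Igfbp4 had 0.16 ± 0.22, Igf1 0.06 ± 0.30, Igfbp3 0.03 ± 0.26 and Igfbp7 -0.08 ± 0.27. The receptors had -0.01 ± 0.13 for Igf1r and 0.09 ± 0.12 for Igf2r. edgeR's quasi-likelihood test called 0 of 10 members, where 0% of the 12763 genes were called, 316 genes had an unadjusted p under 0.05 and DESeq2 called 3 genes. The reporter that defined the split was thus not called by edgeR either. The lack of calls therefore cannot show that the members were equal in both groups. All adjusted p of the members were 1. The summed binding proteins stood at 15763 and 16279 CPM in tdTomato-positive cells and at 13903 and 14059 CPM in tdTomato-negative cells.

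Beyond the members, 35 other genes of the axis were examined, among them receptors, adapters, proteases of binding proteins and the growth hormone pathway. In reticular-like against preosteoblast-like cells, 12 of the 32 tested were higher and 2 lower, where 25.2% of all genes were called. The median log2 fold change was 0.49 against -0.03 over all genes. Ghr, the growth hormone receptor, was higher by 1.52 ± 0.16 (adjusted p = 1.24e-04), with 711 and 820 CPM against 283 and 270 CPM. Stat5a, a transcription factor downstream of it, was higher by 1.60 ± 0.19 (adjusted p = 1.95e-04). Irs2, an adapter of the insulin and IGF receptors, was higher by 1.33 ± 0.20 (adjusted p = 8.42e-04), and Htra1, a protease that cleaves binding proteins, by 0.77 ± 0.18 (adjusted p = 0.0122). The lower genes were H19 (-2.38, adjusted p = 0.00203) and Grb14 (-2.00, adjusted p = 5.27e-06), an adapter that restrains the insulin receptor. Insr, the insulin receptor (-0.07), the adapter Irs1 (-0.33) and Pappa (0.60) were not called.

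Pappa, the protease that cleaves Igfbp4, was at 491 CPM in Mouse 1 and 579 CPM in Mouse 2 in reticular-like cells and at 383 and 345 CPM in preosteoblast-like cells. Periosteal-like cells held 56.2 and 54.8 CPM, a log2 fold change of 3.20 ± 0.40 for reticular-like against periosteal-like cells (adjusted p = 3.06e-04). In that comparison 7 of the 32 genes tested from the list were higher and 5 lower, where 21.5% of all genes were called. The median of the list was 0.17 (all genes 0.01). Ghr was higher by 0.55 ± 0.16 (adjusted p = 0.0350) and Igf2bp1, an mRNA binding protein, by 1.82 ± 0.56 (adjusted p = 0.0425). H19 was lower by a log2 fold change of -7.92 ± 0.49 (adjusted p = 3.25e-06), and Pappa2, a relative of Pappa, by -2.10 ± 0.59 (adjusted p = 0.0376), from at most 6.57 CPM. Insr, Irs1, Irs2 and Htra1 had log2 fold changes from -0.22 to 0.20 and were not called.

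In mature osteoblast-like against preosteoblast-like cells, 16 of the 32 genes tested from the list were lower, where 34.7% of all genes were called. Foxo3 (0.78 ± 0.27, adjusted p = 0.0492) was the 1 higher gene of the list, named after its value was seen. Foxo3 was at 47.9 and 40.9 CPM against 40.2 and 44.0 CPM, so the classes overlapped on that scale, and with library size alone it had 0.02 (adjusted p = 0.956). That scaling called 27 genes of the list lower and 0 higher, with Insr, Irs2 and Htra1 among the lower. It called 7566 of all 11939 genes tested. The median of the list was -1.02 (all genes -0.14), and -1.78 with library size alone (all genes -0.90). Ghr was lower at 15.3 and 21.5 CPM (-3.04 ± 0.21, adjusted p = 5.17e-06), Pappa to 0 and 6.82 CPM (adjusted p = 7.30e-05) and H19 to 0 and 0.359 CPM (adjusted p = 0.00371). Igf2bp3 had 0 UMIs in both mature osteoblast-like sums, against 4.14 and 4.90 CPM (adjusted p = 0.00373). Irs1 was lower by a log2 fold change of -0.99 ± 0.20 (adjusted p = 0.00300). With TMM scaling Insr (0.12), Irs2 (-0.54) and Htra1 (-0.45) were not called.

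In endothelial-like against reticular-like cells, 20 of the 32 genes tested from the list were lower and 6 higher, where 48.2% of all genes were called. The median of the list was -1.33 (all genes -0.05). The adapters Irs1 (-4.08 ± 0.25, adjusted p = 4.32e-07) and Irs2 (-4.29 ± 0.30, adjusted p = 1.02e-06) were lower, together with Ghr (-3.78 ± 0.19, adjusted p = 9.53e-08), Pappa (-4.34 ± 0.44, adjusted p = 1.48e-05) and Htra1 (-2.03 ± 0.20, adjusted p = 1.02e-05). Insr was higher by 2.12 ± 0.15 (adjusted p = 1.29e-06). Stc1, a secreted inhibitor of Pappa, was higher by 5.03 ± 0.41 (adjusted p = 3.04e-06), with 700 and 729 CPM in sinusoidal-like cells, 464 and 503 CPM in arterial-like cells and 21.7 and 10.6 CPM in reticular-like cells. The protease and its inhibitor thus peaked in different classes.

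Between the endothelial classes, 11 of the 32 genes tested from the list were lower in arterial-like cells and 2 higher. The share called over all genes was 19.3%. The median of the list was -0.92 (all genes -0.01). The higher genes of the list were the kinases Akt1 (0.53) and Gsk3b (0.50), named after their values were seen. Insr was at 332 and 284 CPM in sinusoidal-like cells and at 36.6 and 32.4 CPM in arterial-like cells (-3.31 ± 0.18, adjusted p = 3.00e-07). Jak2, the kinase of the growth hormone receptor, was at 390 and 305 CPM against 42.9 and 37.1 CPM (-3.27 ± 0.21, adjusted p = 1.11e-06). The insulin receptor and Igf1r thus peaked in the same class, and reticular-like cells, which held 19.8 and 23.5 CPM of Insr, were far below it. Pappa (-2.86 ± 0.68, adjusted p = 0.0112), Irs2 (-2.63 ± 0.64, adjusted p = 0.0127), Grb14 (-2.69 ± 0.64, adjusted p = 0.0114) and Ghr (-1.29 ± 0.24, adjusted p = 0.00247) were lower in arterial-like cells, and these are genes that reticular-like cells also express. Htra1 (0.20) and Irs1 (-0.99) were not called. In the tdTomato comparison 0 of 33 genes of the list were called, and their median was 0.00.

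**Figure D4:**
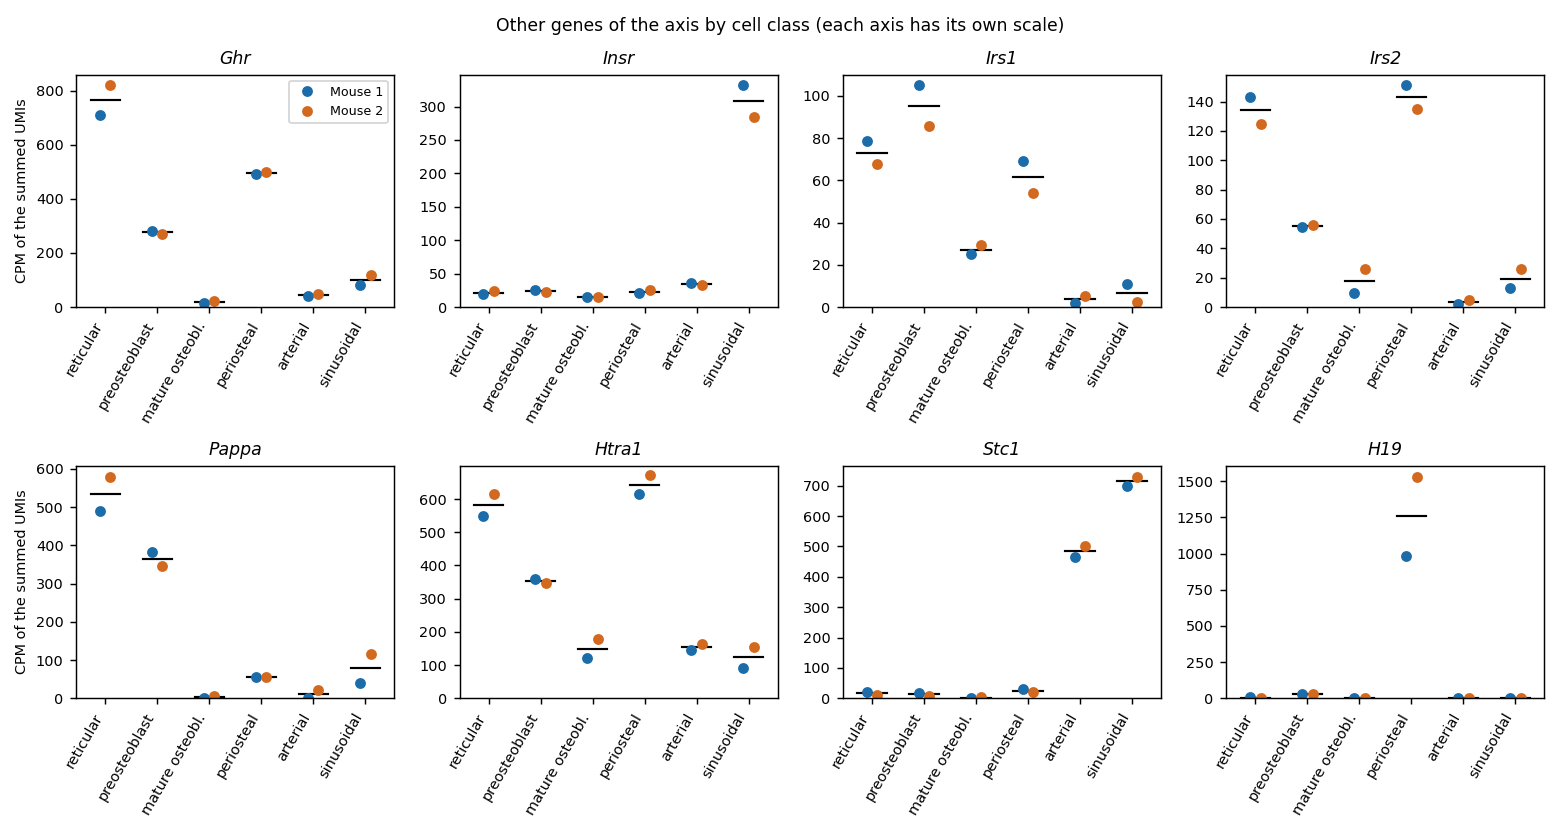
CPM of 8 other genes of the axis by class (vertical axis, own scale per gene), with 1 point per mouse and a bar at the mean. Ghr, Pappa and Irs2 lie mainly in the stroma other than mature osteoblast-like cells, with Pappa low in periosteal-like cells too. Insr peaks in sinusoidal-like cells, Stc1 lies in both endothelial classes, and H19 lies in periosteal-like cells at 986 and 1529 CPM.

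The members' levels were set against each other over the 12 class sums of 6 classes and 2 mice, on the log2(CPM + 1) scale. The sums share 2 libraries and differ in depth, so the values are descriptions. Of the 45 pairs, 22 had a Pearson r of at least 0.5 and 4 were below 0. The same share was not taken over pairs of other genes, so this count is not a trait of the members. Igfbp2 and Igfbp6 each reached 20 CPM in a single class, which weighs on the r of their pairs. Igf1 and Igfbp5 lay closest, with r = 0.96, followed by Igfbp3 and Igfbp7 with r = 0.91 and by Igf1r and Igfbp2 with r = 0.88. Igf1 and Igfbp4 had r = 0.87, and Igf2 and Igfbp6 had r = 0.82. Igf2r and Igfbp2 lay farthest apart, with r = -0.51, and the 2 receptors had r = -0.15.

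**Figure D5:**
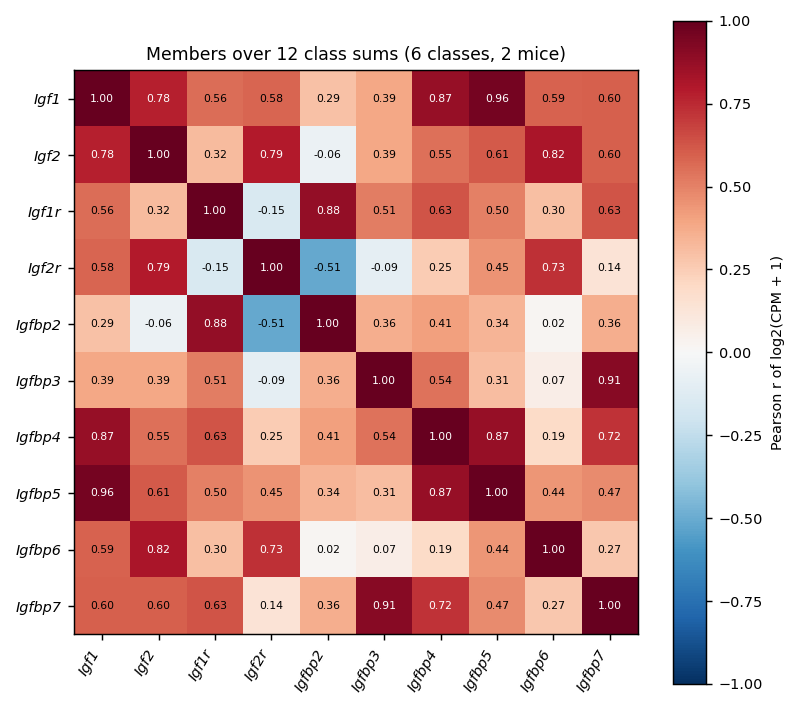
Pearson r of log2(CPM + 1) for each pair of members over 12 class sums (6 classes, 2 mice), with color from -1 to 1. Pairs with high r include Igf1 with Igfbp4 and Igfbp5, Igfbp3 with Igfbp7, Igf1r with Igfbp2, and Igf2 with Igfbp6.

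Over all 20 sums of 10 classes, blood classes included, the most similar of 8853 genes were listed for each member. Igfbp7 lay closest to the type IV collagen genes Col4a1 (r = 0.99) and Col4a2 (r = 0.99). Igfbp6 lay closest to Clec3b (r = 0.98) and Mfap4 (r = 0.98), which are periosteal-like genes here, and Igfbp5 to the complement inhibitor Serping1 (r = 0.98). Igfbp4 lay closest to Tgfbr3 (r = 0.97), Igf1 to C1rb (r = 0.96), Igfbp3 to Plscr2 (r = 0.95), Igf2r to Lmo7 (r = 0.95), Igfbp2 to Ctnnal1 (r = 0.92), Igf2 to Lama2 (r = 0.91) and Igf1r to Cpd (r = 0.88). Sned1, which encodes a matrix protein, was among the 3 closest genes of both Igf1 (r = 0.95) and Igfbp5 (r = 0.97). These sums share their libraries, and no test was made of these values.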

How the data were processed

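Cxcl12-GFP+ cells of femurs from 2 mice were profiled with the 10x 3' v3 chemistry, 1 library per mouse. UMI counts per gene and barcode were deposited by the authors as whole numbers without a filter for cells (6794880 barcodes per library). The submitters' processing notes name Cell Ranger (3.0.0 per the file headers), Seurat and mm10, with 8 reporter features among 28006 and an annotation whose release is not given in the sources used here. Gene positions are from GENCODE M21 and promoters from RefSeq, both on GRCm38.

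Barcodes were kept as cells at 1000 genes or more and no more than 15% of mitochondrial UMIs. They were clustered with scanpy 1.11.5 and leidenalg 0.10.2 (resolution 0.5, 2000 variable genes, 30 principal components, 15 neighbors) without the members, the other genes of the axis, reporters and mitochondrial genes. Clusters were named by markers raised at least 1.5-fold in at least 10% of cells. The scoring rule was set after the clusters were seen, and the names were rebuilt here, so class sizes can differ from the study for that reason. Scrublet called 1 and 3 cells and had not worked, so doublets were kept, and the removal of its highest scores was an alternative. The members and lists were chosen with earlier results of these data known.

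UMIs were summed per mouse and class. edgeR 4.0.16 (quasi-likelihood test, R 4.3.3) was fitted to the sums of all stromal and endothelial classes with TMM scaling and filterByExpr, and p-values were adjusted by Benjamini and Hochberg over all genes. Fits held 10 or 12 sums with 5 or 6 residual degrees of freedom. Classes of the same number came from the same mouse. The deviations of both classes from their means correlated across genes between 0.0419 and 0.472. The reported fit had no block for the mouse, and the blocked fit is given where it changes a call. Shares were taken after thinning to 2000 UMIs, which left out 6 and 21 cells. Alternatives were DESeq2 1.42.0 and its size factors, no filter on low counts, fewer classes in the fit, other cell limits, other clusterings, another tdTomato threshold and leaving out each mouse. Library size alone and leaving out shared barcodes were added after seeing the data. Of the other genes, Insr, Irs1, Irs2, Pappa, Htra1 and Ghr were always named, with up to 4 called genes of the largest fold change and the same sign in both mice per comparison. For each member with at least 20 CPM in some class, the 3 genes of highest r were listed. Simulated on the sums for reticular-like against preosteoblast-like cells, the test recovered 179 of 200 changed genes among 11242 with 12 false calls. There all classes shared the same profile apart from the changed genes, and the sums were drawn independently at a fixed spread. Only genes with enough counts were changed. The simulation thus covers neither members with few UMIs nor the pairing by mouse.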

Additional observations from a re-analysis of the deposited data

How the results depend on the processing

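Without 1 of the mice, a class with 1 sum left was assumed to vary like the other classes. Called members then ran from 2 to 2 in reticular-like against preosteoblast-like cells, from 2 to 6 against periosteal-like cells, from 4 to 5 in mature osteoblast-like against preosteoblast-like cells, from 4 to 6 in endothelial-like against reticular-like cells and from 5 to 6 in arterial-like against sinusoidal-like cells. Called genes ran in the same order from 749 to 1209, 734 to 1081, 1558 to 3242, 3570 to 3574 and 1002 to 1197. In the tdTomato comparison they ran from 1 to 4, and were 3 with DESeq2, 80 without a filter on low counts, 5 with the replicate block, 1 with the highest Scrublet scores removed and 1 at a threshold of 2 tdTomato UMIs, each with 0 members. With library size alone, 7566 genes were called in mature osteoblast-like against preosteoblast-like cells, and the log2 fold change of Igf2r turned to -0.62 (adjusted p = 0.00292).

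Of 120 log2 fold changes of members without a mouse, 94 kept their side of the threshold, 25 lost the call in the same direction and 1 gained it. Of 663 under the other alternatives, 646 kept their side, 10 lost the call, 6 gained it and 1 was the reversal above. Values called in neither fit changed sign in 6 and 12 cases. Igf1 in reticular-like against preosteoblast-like cells gained it without a filter (adjusted p = 4.71e-04), with only these classes (0.0101) and with the replicate block (0.0415), and the pairing by mouse changed no other call of a member. Igfbp3 in mature osteoblast-like cells lost it at the finer clustering (0.111) and Igfbp2 in reticular-like against preosteoblast-like cells with only these classes (0.0555). Of 300 mean levels under other alternatives, 264 moved by less than the spread between the mice. The causes were not tested. With 14 and 28 cells in the smallest classes and 0 to 3 UMIs of some members, absence was not detectable.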

Other observations

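The unnamed cluster of 66 and 80 cells, led by Acta2 and mitotic genes, entered no comparison. It held Igf1 at 287 CPM in Mouse 1 and 259 CPM in Mouse 2, Igfbp4 at 3182 and 2682 CPM and Igfbp5 at 880 and 1329 CPM. Igf1, Igfbp4 and Igfbp5 were seen together in 28.8% and 24.1% of its thinned cells. Across the reticular-like clusters, Igf1r was at 77.7 and 66.3 CPM in cluster 3 and at 67.5 and 74.7 CPM in cluster 4, against 53.5 and 54.5 CPM in cluster 0 and 54.4 and 52.0 CPM in cluster 2. Clusters 3 and 4 thus lay above clusters 0 and 2 in both mice, and this split was noticed in the data and was not tested. Cluster 4 had a median of 6188.0 and 5844.0 UMIs per cell, and cluster 3 of 13722.0 and 12366.0.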
